A study of Mus musculus with 10 samples.

Results

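The genes of the tricarboxylic acid (TCA) cycle and of pyruvate entry into it were examined by RNA sequencing in primary mouse peritoneal macrophages. The set held 35 genes of the 54532 in the deposited table, chosen by gene symbol from a list of enzymes, carriers and regulators. The rule itself uses no measured value, but it was chosen with earlier results of these data known. All 35 passed the filter for low values, which asked for a mean normalized count of 10 or more. The labels name no treatment. The groups were young wild-type mice (4 libraries, replicates A, B, C and E), aged wild-type mice (3 libraries, replicates 3, 4 and 6) and aged mice labelled Trem1-/- (3 libraries, replicates 1, 2 and 3). Trem1 encodes an activating receptor of myeloid cells, and Trem1-/- denotes its genetic deletion. The labels give no age beyond young and aged, no promoter or Cre driver, no sorting step and no young Trem1-/- group, so the libraries labelled Trem1-/- were compared with wild type of the same age and with young wild type. Values are listed in the replicate order above unless stated otherwise.

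Pyruvate, the end product of glycolysis, enters mitochondria through the mitochondrial pyruvate carrier. There the pyruvate dehydrogenase complex converts it to acetyl-CoA, and citrate synthase joins acetyl-CoA to oxaloacetate to start the cycle. In macrophages the cycle also supplies signalling and antimicrobial metabolites. Citrate can leave the mitochondria and be split by ATP-citrate lyase to cytosolic acetyl-CoA for lipid synthesis and histone acetylation, aconitate can be turned into itaconate by the enzyme encoded by Acod1, and succinate that accumulates in inflammatory macrophages is oxidized by succinate dehydrogenase.

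Promoter sequence is shown for Idh1, Idh2 and Acly, the 3 genes that differed in both tests against aged wild type, and for Cs, whose level was nearly equal in young and aged wild type. The stretches end at the annotated start site that lies farthest upstream and come from RefSeq on GRCm38.p6, written 5′ to 3′ on the strand of the gene. Capitals mark 3 motifs on either strand, the GC box (GGGCGG), the CCAAT box (CCAAT) and the core of the hypoxia response element (ACGTG). The Idh1 stretch (chr1:65186501-65186682, minus strand, 182 bases) stops upstream where exons of the neighbouring gene Pikfyve begin. The others were Idh2 (chr7:80115393-80115600, minus strand, 208 bases), Acly (chr11:100528001-100528250, minus strand, 250 bases) and Cs (chr10:128337477-128337726, plus strand, 250 bases).
Idh1: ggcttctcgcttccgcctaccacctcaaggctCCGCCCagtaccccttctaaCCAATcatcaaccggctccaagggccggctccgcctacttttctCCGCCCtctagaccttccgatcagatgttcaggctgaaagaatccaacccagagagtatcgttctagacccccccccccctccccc
Idh2: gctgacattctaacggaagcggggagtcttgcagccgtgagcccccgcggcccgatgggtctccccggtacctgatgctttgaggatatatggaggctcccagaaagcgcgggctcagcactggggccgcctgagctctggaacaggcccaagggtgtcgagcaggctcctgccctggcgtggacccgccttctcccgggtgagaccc
Acly: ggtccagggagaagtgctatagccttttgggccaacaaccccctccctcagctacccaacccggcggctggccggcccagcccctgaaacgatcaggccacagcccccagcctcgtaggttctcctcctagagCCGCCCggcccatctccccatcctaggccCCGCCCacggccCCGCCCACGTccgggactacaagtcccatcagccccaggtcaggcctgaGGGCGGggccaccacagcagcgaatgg
Cs: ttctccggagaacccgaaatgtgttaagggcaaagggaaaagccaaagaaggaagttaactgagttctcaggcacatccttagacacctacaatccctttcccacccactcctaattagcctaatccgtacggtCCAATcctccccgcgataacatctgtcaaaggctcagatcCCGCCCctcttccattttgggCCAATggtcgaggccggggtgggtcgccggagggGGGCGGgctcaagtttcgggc
The Idh1 stretch held 2 GC boxes and 1 CCAAT box, the Acly stretch 4 GC boxes and 1 ACGTG that overlapped a GC box, and the Cs stretch 2 of each of the first 2 motifs. The printed Idh2 stretch held none of the 3, but the full window of 300 bases around its start held a GC box and a CCAAT box. Promoter windows of 300 bases, from 250 before to 50 after a start, were found for 31 of the 35 genes (40 windows). The GC box lay in 28 of these 40 windows and in 35.7% of all 32851 windows, the CCAAT box in 27 and 37.4%, and ACGTG in 15 and 19.6%. Of 4 further motifs, the antioxidant response element TGACNNNGC lay in 6 of the 40 windows and 12.4% of all, and the NRF1 element in 4 and 4.6%. The sterol response element TCACNCCAC lay in 0 of the 40 and 1.24% of all, and the oestrogen-related receptor element TCAAGGTCA in 1 (Sdhd) and 0.423%. A match is a run of letters and no measured binding site.

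Whole-number reads recovered from the table totalled 2663744 to 5603498 per library, and 3 reads corresponded to 1.85 to 3.84 normalized counts. Trem1 did not separate the libraries by their labels. Its normalized counts were 14.8, 8.0, 12.0 and 24.4 in young wild type, 64.0, 15.3 and 27.0 in aged wild type and 23.5, 106 and 13.8 in the libraries labelled Trem1-/-. A gene-level count does not show which exons were read, and the reason was not tested. Every direction below therefore refers to the labels. The labelled cell type was checked against 9 macrophage markers (Adgre1, Csf1r, Cd68, Itgam, Lyz2, Mertk, Fcgr1, Cd14 and Lamp1), all of which were read in every group. Their sum was 73135 to 81157 normalized counts in young wild type and 24446 to 38242 in aged wild type. In the libraries labelled Trem1-/- it was 63147 to 82775. Lyz2 made up 69.4% to 77.4% of this sum over the 10 libraries. Of these 9 markers, 7 passed the test as lower in aged than in young wild type and 7 as higher in the libraries labelled Trem1-/- than in aged wild type, and of 7 markers of large resident peritoneal macrophages 7 and 6. The summed B cell markers moved the other way (2322 to 5028, 12500.0 to 20197 and 5772 to 12362), as did those of T and NK cells (32.5 to 64.5, 207 to 347 and 41.9 to 81.7) and of mesothelial cells and fibroblasts (12.3 to 453, 506 to 679.8 and 11.2 to 377). Summed neutrophil markers moved with the macrophage markers (635 to 902, 211 to 549 and 739 to 761), and Ly6g among them was at 0 outside aged wild type. Only 1 of these 5 neutrophil markers passed the filter for low values, so 1 gene made up most of that sum. Summed erythroid markers reached 23658 in aged wild-type replicate 4, against 473 in the lowest aged wild-type library and at most 751 in the other groups. Mitochondrially encoded transcripts made up 3.17% to 5.26% of reads in aged wild type and 1.19% to 2.39% elsewhere, and the noncoding RNA Gm26917 made up 8.38% to 12.9% and 5.0% to 5.70%. The part of these differences in the results below was not tested. In such bulk samples fewer cells of a type and less RNA per cell cannot be told apart.

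In aged wild type, the isocitrate dehydrogenases Idh1 and Idh2, the ATP-citrate lyase gene Acly, the cytosolic aconitase Aco1 and the succinate dehydrogenase subunit Sdhd were lower than in young wild type. Their mean levels were 0.416 to 0.684 times those of young wild type. The other 30 genes of the set, Cs, Ogdh and Sdha among them, did not pass the test. In the libraries labelled Trem1-/-, Idh1, Idh2 and Acly were higher than in aged wild type, at 1.55 to 1.95 times its mean. The call of Idh2 was lost in 10 of 18 alternative settings, edgeR among them (adjusted p = 0.0696). Across all 35 genes, 0 passed the test as higher and 5 as lower in aged wild type (limma, Benjamini-Hochberg adjusted p under 0.05 over all genes tested). That is 14.3% of the set, whereas 33.3% of the 11506 genes tested were called in this comparison, 14.3% as higher and 19.0% as lower. At an unadjusted p under 0.05, 2 of the 35 were higher and 10 lower, beside 2245 higher and 2788 lower of the 11506 genes tested. Of the 35, edgeR and DESeq2 each called 2 higher and 5 lower. Without aged wild-type replicate 4, limma called 2 higher and 8 lower, and after TMM rescaling 0 higher and 9 lower. The share of all genes called in these alternative settings is not given here. The median log2 difference was -0.18 over the 35 genes and -0.020 over all genes tested, and 27 of the 35 lay below 0. In the main limma test the set thus had a smaller share of called genes than the whole table. For lower genes alone the shares were closer, at 14.3% of the set and 19.0% of all genes tested. The 5 called genes share 0 exonic bases with other annotated genes.

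**Figure D1:**
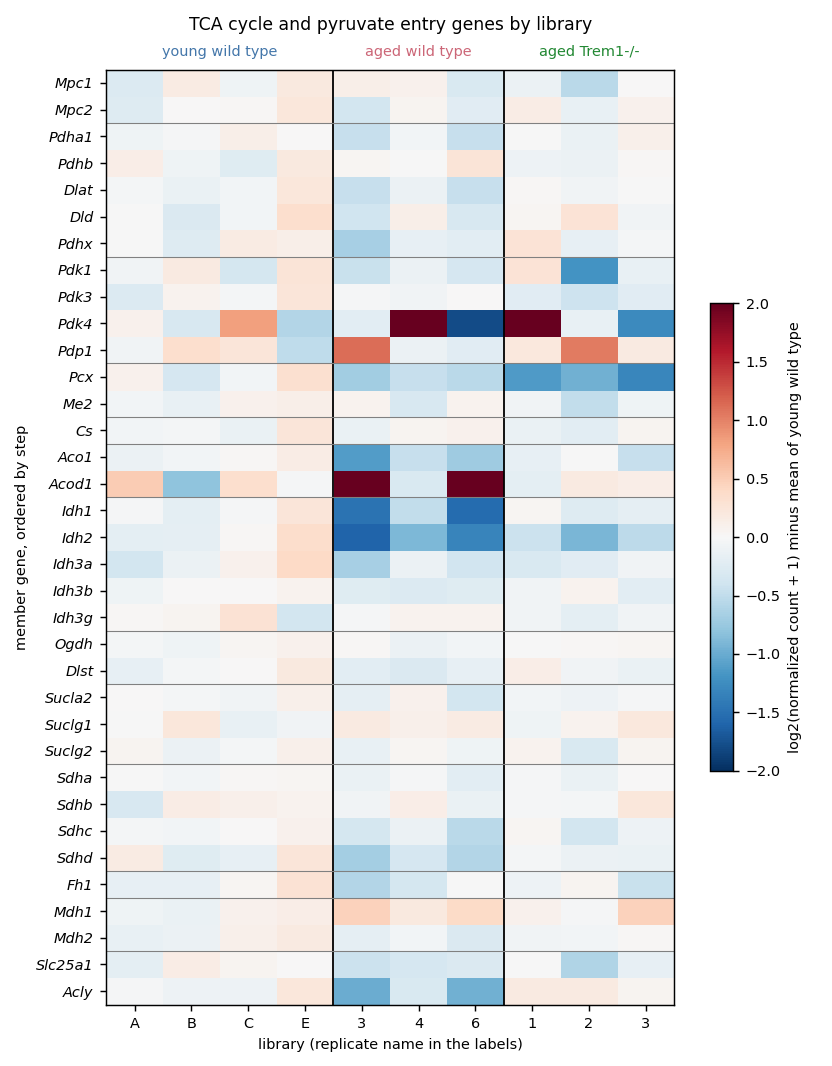
Level of the 35 genes in each library as log2(normalized count + 1) minus the mean of the 4 young wild-type libraries, with genes in rows ordered by step and libraries in columns by group, and colours ending at 2 in either direction. Idh1, Idh2, Acly and Aco1 are blue in the aged wild-type columns, palest in replicate 4, and most other rows stay pale in all 3 groups; Pdk4 and Acod1 vary most between libraries.

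Against aged wild type, the libraries labelled Trem1-/- had 3 of the 35 genes called higher and 0 called lower, or 8.57%. The background in this comparison was 18.4% of all genes tested (11.5% higher, 6.82% lower). At an unadjusted p under 0.05, 7 were higher and 1 lower, beside 2263 higher and 1651 lower of the 11506 genes tested. Of the 35, edgeR called 2 higher (Acly and Idh1), DESeq2 called the same 3 higher as limma, and each called 1 lower (Acod1). Without aged wild-type replicate 4, limma called 7 higher (Acly, Aco1, Dlat, Idh1, Idh2, Pdha1 and Sdhd) and 1 lower (Acod1), and without replicate 6 it called 1 higher (Acly). Shares over all genes are likewise not given for these alternatives. The median log2 difference was 0.15 over the 35 genes and 0.019 over all genes. Against young wild type, the libraries labelled Trem1-/- had 0 of the 35 genes called by limma, edgeR or DESeq2, beside 0.921% of all genes by limma (0.591% higher, 0.33% lower). At an unadjusted p under 0.05 they had 0 higher and 2 lower, beside 892 higher and 762 lower of the 11506 genes tested. The first 2 comparisons share the aged wild-type libraries, so opposite signs in them are not separate observations.

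**Figure D2:**
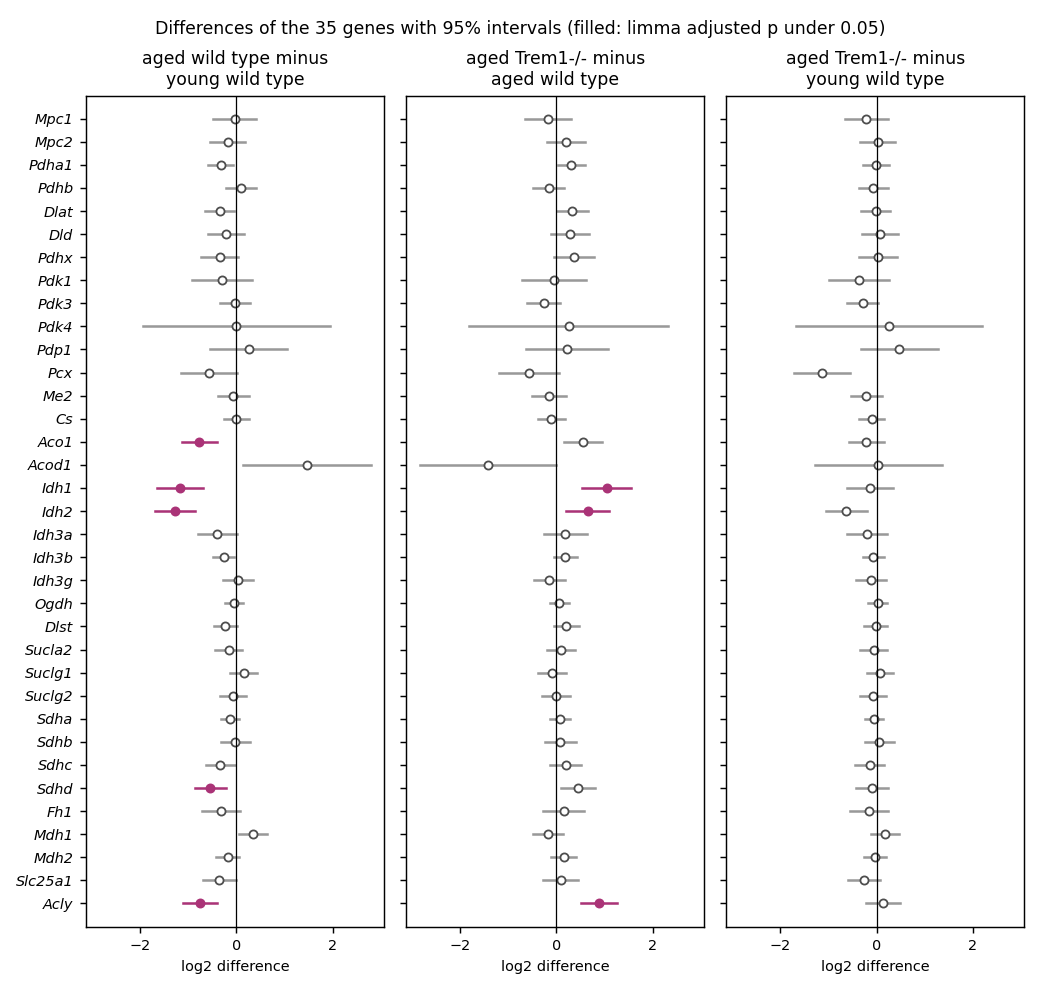
Log2 difference of each of the 35 genes with its 95% interval in the 3 comparisons, on log2(normalized count + 1); filled points passed the limma test (adjusted p under 0.05). There are 5 filled points in the first panel, all left of 0, 3 in the second, all right of 0, and 0 in the third.

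Mpc1 and Mpc2 encode the 2 subunits of the mitochondrial pyruvate carrier. Neither was called by limma, edgeR or DESeq2 in any comparison, nor did either reach an unadjusted limma p under 0.05. Mpc1 had 34.9, 47.4, 39.6 and 48.8 normalized counts in young wild type, 46.1, 44.7 and 34.1 in aged wild type and 38.8, 28.8 and 42.4 in the libraries labelled Trem1-/-. Mpc2 had 54.9, 66.5, 67.3 and 77.9 in young wild type, 51.2, 68.7 and 56.6 in aged wild type and 73.6, 59.3 and 70.0 in those labelled Trem1-/-. The 3 groups overlapped for both genes. For Mpc1, 23.05% of the exonic bases overlap the gene 4930506C21Rik, so its reads may be shared with it. The 95% interval of the log2 difference between aged and young wild type was -0.48 to 0.41 for Mpc1 and -0.54 to 0.19 for Mpc2.

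The pyruvate dehydrogenase complex consists of the E1 subunits encoded by Pdha1 and Pdhb, the E2 acetyltransferase Dlat, the E3 dehydrogenase Dld and the E3-binding protein Pdhx. None of the 5 passed the test in aged against young wild type with limma, edgeR or DESeq2, and 2 (Pdha1 and Dlat) had an unadjusted p under 0.05. Pdha1 averaged 309 ± 18.2 (SD, n = 4), 248 ± 41.9 (n = 3) and 306 ± 23.6 (n = 3) normalized counts in young wild type, aged wild type and the libraries labelled Trem1-/-. Its log2 difference between aged and young wild type was -0.32 ± 0.12 (SE, limma adjusted p = 0.0587). Dlat averaged 112 ± 12.8, 87.7 ± 12.9 and 109.8 ± 3.84, with -0.35 ± 0.14 (adjusted p = 0.0711). In aged wild type both genes were highest in replicate 4, at 297 for Pdha1 and 103 for Dlat. Without that replicate both passed the test as lower in aged wild type (Pdha1 -0.46, limma adjusted p = 0.00722; Dlat -0.46, adjusted p = 0.025) and as higher in the libraries labelled Trem1-/- (Pdha1 0.44, adjusted p = 0.0176; Dlat 0.45, adjusted p = 0.0499). With all libraries kept, both also passed as lower in aged wild type after TMM rescaling (Pdha1 -0.39, limma adjusted p = 0.0306; Dlat -0.41, adjusted p = 0.037). Whether these 2 genes passed thus depended on replicate 4 and on the scaling. For Pdha1, 16.15% of the exonic bases overlap Map3k15. Pdhb averaged 100.3 ± 13.95, 107 ± 10.9 and 95.4 ± 4.86, Dld 168 ± 31.2, 145 ± 29.2 and 176 ± 21.6, and Pdhx 72.4 ± 9.24, 57.1 ± 10.7 and 73.6 ± 11.8, with overlapping groups throughout.

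The pyruvate dehydrogenase kinases Pdk1, Pdk3 and Pdk4 phosphorylate and switch off the complex, and the phosphatase subunit Pdp1 switches it on again. Pdk4, a kinase known to be induced by fasting and fatty acids, varied widely between the libraries of both aged groups. It had 19.2, 14.2, 32.4 and 11.6 normalized counts in young wild type, 15.4, 75.3 and 4.49 in aged wild type and 85.8, 16.0 and 6.88 in the libraries labelled Trem1-/-. The high libraries were aged wild-type replicate 4 and library 1 labelled Trem1-/-, and the 95% interval of the log2 difference between aged and young wild type ran from -1.93 to 1.93. Pdk1 had 139, 165, 114 and 174 in young wild type, 108, 134 and 115 in aged wild type and 177, 63.3 and 132 in those labelled Trem1-/-, with library 2 labelled Trem1-/- the lowest of all 10. Pdk3 had 66.2, 84.4, 78.1 and 95.3 in young wild type, 79.4, 76.4 and 80.9 in aged wild type and 68.5, 60.1 and 68.8 in those labelled Trem1-/-. The 3 libraries labelled Trem1-/- lay below the 3 aged wild-type libraries for Pdk3, with a log2 difference of -0.26 ± 0.16 and a limma adjusted p of 0.261. Pdp1 had 19.2, 25.9, 24.0 and 13.9 in young wild type, 44.8, 18.6 and 17.1 in aged wild type and 23.5, 42.5 and 22.9 in those labelled Trem1-/-. Its groups overlapped, with aged wild-type replicate 3 and library 2 labelled Trem1-/- the 2 highest.

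Pyruvate carboxylase, encoded by Pcx, makes oxaloacetate from pyruvate, and the malic enzyme Me2 makes pyruvate from malate in mitochondria. Pcx was ordered by group without overlap, at 22.7, 16.6, 20.4 and 26.7 normalized counts in young wild type, 12.8, 15.3 and 14.4 in aged wild type and 9.20, 10.4 and 8.03 in the libraries labelled Trem1-/-. None of the 3 differences passed the test. Its log2 difference was -0.56 ± 0.27 between aged and young wild type (limma adjusted p = 0.127), -0.57 ± 0.28 between the libraries labelled Trem1-/- and aged wild type (adjusted p = 0.179) and -1.13 ± 0.27 between the former and young wild type (adjusted p = 0.0663). These levels rest on 7 to 27 reads per library. Me2 averaged 168 ± 14.2, 162 ± 24.3 and 146 ± 23.1, with overlapping groups.

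Citrate synthase, encoded by Cs, had nearly the same mean in young and aged wild type. It had 356, 359.6, 337 and 440.5 normalized counts in young wild type, 338, 387 and 393 in aged wild type and 337, 319.7 and 385 in the libraries labelled Trem1-/-. The groups overlapped. The 95% interval of its log2 difference between aged and young wild type was -0.26 to 0.26, and the difference itself was 0.0019, or -0.067 after TMM rescaling.

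Citrate has 2 routes out of the first steps of the cycle here, export by the citrate carrier Slc25a1 followed by cleavage by ATP-citrate lyase, and further conversion towards isocitrate. Acly had the highest level per length of the 35 genes, with 665 ± 73.8 normalized counts per kilobase of exon in young wild type (SD, n = 4). The gene (ENSMUSG00000020917.17, GRCm38 chr11:100476353-100528000, minus strand) had 3421, 3275, 3260.5 and 4084 normalized counts in young wild type, 1757, 2843 and 1804 in aged wild type and 3956, 3957 and 3634 in the libraries labelled Trem1-/-. All 3 aged wild-type libraries lay below all others, and replicate 4 was the closest to them. Acly fell by 0.75 on the log2 scale in aged against young wild type (log2 -0.75 ± 0.16, limma adjusted p = 0.00434) and rose by 0.89 ± 0.17 in the libraries labelled Trem1-/- against aged wild type (adjusted p = 0.00638). Against young wild type the libraries labelled Trem1-/- differed by 0.14 ± 0.16 (adjusted p = 0.764). Both calls held in all 18 alternative settings, including leaving out each library. Slc25a1 had 88.9, 113, 106 and 102 in young wild type, 75.5, 80.8 and 83.6 in aged wild type and 101, 67.3 and 90.6 in those labelled Trem1-/-. Young and aged wild type did not overlap for Slc25a1, but the difference of -0.35 ± 0.16 did not pass the test (limma adjusted p = 0.104).

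Aco1 encodes the cytosolic aconitase, which also serves as an iron-sensing RNA-binding protein. Aco1 (ENSMUSG00000028405.9, GRCm38 chr4:40143081-40198338, plus strand) had 147, 154, 162 and 178 normalized counts in young wild type, 73.0, 116 and 97.0 in aged wild type and 142, 159 and 116 in the libraries labelled Trem1-/-. The aged wild-type libraries lay below both other groups, by a narrow margin (replicate 4 against library 3 labelled Trem1-/-). Aco1 fell in aged against young wild type (log2 -0.77 ± 0.17, limma adjusted p = 0.00471). Its difference between the libraries labelled Trem1-/- and aged wild type was 0.55 ± 0.18, with an adjusted p of 0.0503 that missed the threshold. It passed in 5 of 18 alternative settings, with adjusted p-values from 0.0141 to 0.167 over the 18. These were TMM rescaling (0.62, adjusted p = 0.036), a pseudocount of 10 (adjusted p = 0.0496), a minimum mean of 50 (adjusted p = 0.0411), and leaving out aged wild-type replicate 4 (0.71, adjusted p = 0.0141) or library 3 labelled Trem1-/- (0.68, adjusted p = 0.0381).

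Acod1 encodes the enzyme that makes itaconate, a metabolite induced in activated macrophages. It had 12.2, 4.31, 10.8 and 8.14 normalized counts in young wild type, 39.7, 6.55 and 53.9 in aged wild type and 7.15, 9.61 and 9.18 in the libraries labelled Trem1-/-. Aged wild-type replicates 3 and 6 were higher than all other libraries, and replicate 4 lay within the range of the other groups. The limma log2 difference was 1.46 ± 0.61 between aged and young wild type (adjusted p = 0.0844) and -1.42 ± 0.65 between the libraries labelled Trem1-/- and aged wild type (adjusted p = 0.146). The authors' deposited table gave 1.94 ± 0.64 (SE, adjusted p = 0.0143) for aged against young wild type. On the recovered reads Acod1 was called in both comparisons, by edgeR (1.98, adjusted p = 0.0198; -1.97, adjusted p = 0.0474) and by DESeq2 (1.98, adjusted p = 0.00578; -1.99, adjusted p = 0.0185). Without replicate 4 limma called both as well (2.34, adjusted p = 0.0013; -2.30, adjusted p = 0.00368). The call for Acod1 therefore depended on the test and on that library.

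**Figure D3:**
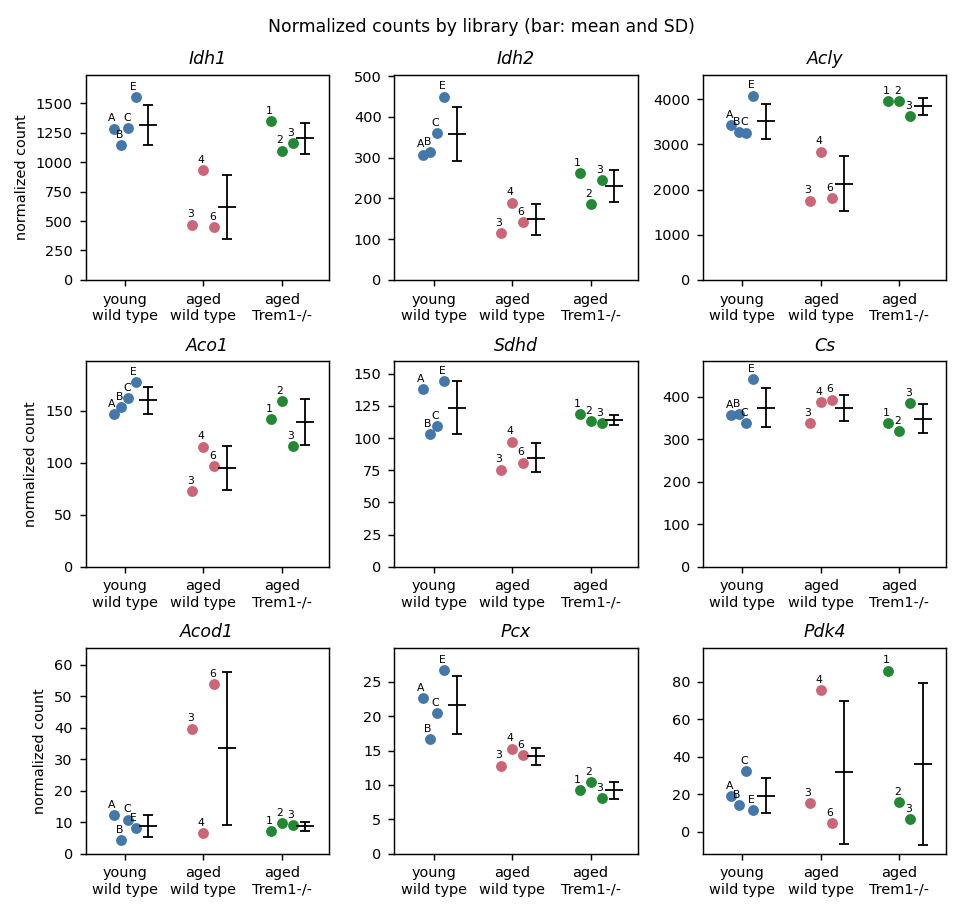
Normalized counts by library for 9 of the genes, with replicate names beside the points and the mean and SD of each group as a bar; group names are those of the labels. Idh1, Idh2, Acly, Aco1 and Sdhd are lowest in aged wild type, Cs is level across groups, Acod1 is high in aged wild-type replicates 3 and 6, Pcx steps down from group to group, and Pdk4 is high in aged wild-type replicate 4 and in library 1 labelled Trem1-/-.

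Isocitrate dehydrogenases come as the NADP-dependent enzymes of the cytosol (Idh1) and of mitochondria (Idh2), which make NADPH, and as the NAD-dependent enzyme of the cycle itself, with the subunits Idh3a, Idh3b and Idh3g. The NADP-dependent pair fell in aged wild type. The 3 NAD-dependent subunits did not pass the test as set, although Idh3b did under 2 alternatives. Idh1 (ENSMUSG00000025950.16, GRCm38 chr1:65158616-65186500, minus strand) had 1284, 1143, 1289.8 and 1554 normalized counts in young wild type, 469.7, 932 and 449 in aged wild type and 1347, 1098 and 1159 in the libraries labelled Trem1-/-. Aged wild-type replicates 3 and 6 were less than 0.5 times every other library outside their group, and replicate 4 lay between them and the rest. Idh1 fell in aged against young wild type (log2 -1.17 ± 0.22, limma adjusted p = 0.0021, 0.468 times the mean). It rose in the libraries labelled Trem1-/- against aged wild type (log2 1.04 ± 0.23, adjusted p = 0.0127, 1.95 times), a call that was lost without aged wild-type replicate 6 (0.85, adjusted p = 0.0506). Against young wild type the difference was -0.13 ± 0.22 (adjusted p = 0.853).

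Idh2 (ENSMUSG00000030541.16, GRCm38 chr7:80094846-80115392, minus strand) had 308, 313, 360.3 and 449.8 normalized counts in young wild type, 115, 189.9 and 141 in aged wild type and 263, 187 and 244 in the libraries labelled Trem1-/-. All 4 young libraries lay above all 6 aged ones, and library 2 labelled Trem1-/- overlapped aged wild-type replicate 4. Idh2 had the lowest ratio of means of the 35 genes in aged against young wild type (0.416 times, log2 -1.27 ± 0.19, limma adjusted p = 0.000707). It was called higher in the libraries labelled Trem1-/- than in aged wild type (log2 0.65 ± 0.20, adjusted p = 0.0472), but 10 of 18 alternative settings lost this call, with adjusted p-values from 0.00984 to 0.162 over the 18. Its mean in the libraries labelled Trem1-/- was 0.646 times that of young wild type (log2 -0.62 ± 0.19, adjusted p = 0.155, not called).

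Of the NAD-dependent subunits, Idh3a averaged 120.1 ± 27.6 (SD, n = 4), 90.7 ± 16.9 (n = 3) and 103 ± 8.94 (n = 3) normalized counts, and Idh3g ranged over 151 to 239, 192 to 204 and 171 to 186 in the 3 groups. Idh3b averaged 218 ± 9.15, 182 ± 1.79 and 208 ± 19.7, with a log2 difference of -0.26 ± 0.10 between aged and young wild type (limma adjusted p = 0.0689). Idh3b passed as lower after TMM rescaling (-0.33, limma adjusted p = 0.024) and with a minimum mean of 50 (-0.26, adjusted p = 0.0493). Its 3 aged wild-type libraries were tightly spaced and lay below the libraries of both other groups. To set the NADP-dependent pair against the NAD-dependent enzyme within each library, the sum of Idh1 and Idh2 per kilobase was divided by that of the 3 Idh3 subunits, a ratio chosen after the values were seen. It was 3.85, 3.32, 3.42 and 4.79 in young wild type, 1.54, 2.74 and 1.48 in aged wild type and 3.96, 3.13 and 3.51 in the libraries labelled Trem1-/-. Aged wild type lay below both other groups without overlap. The log2 difference between aged and young wild type was -1.05 (exact two-sided permutation p = 0.0571, the smallest that 3 against 4 libraries allow; 0.15 after Benjamini-Hochberg adjustment over 6 ratio tests). Between the libraries labelled Trem1-/- and aged wild type it was 0.94 (exact permutation p = 0.1, the smallest that 3 against 3 allow; adjusted 0.15). The ratio of Acly to Cs per kilobase, chosen in the same way, was 10.5, 9.97, 10.6 and 10.1 in young wild type, 5.69, 8.03 and 5.03 in aged wild type and 12.8, 13.6 and 10.3 in the libraries labelled Trem1-/-. Its log2 differences were -0.75 (exact permutation p = 0.0571, adjusted 0.15) and 0.99 (exact permutation p = 0.1, adjusted 0.15). Between the libraries labelled Trem1-/- and young wild type the log2 differences were -0.11 for the first ratio (exact permutation p = 0.571, adjusted 0.571) and 0.24 for the second (exact permutation p = 0.171, adjusted 0.205). With so few libraries no ratio test could have passed a threshold of 0.05.

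**Figure D4:**
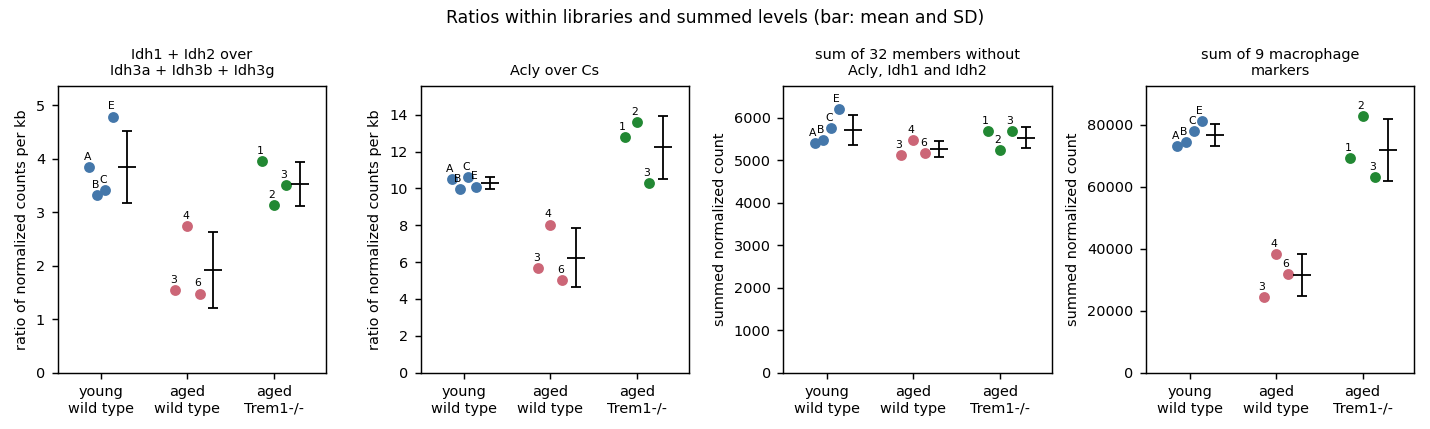
By library, the ratio of Idh1 plus Idh2 to the 3 Idh3 subunits and of Acly to Cs (both per kilobase of exon), the summed normalized counts of the 32 genes other than Acly, Idh1 and Idh2, and the summed normalized counts of 9 macrophage markers; bars give mean and SD, and group names are those of the labels. Both ratios and the marker sum are lowest in the 3 aged wild-type libraries (marker sum 24446 to 38242). The 32-gene sum lies between 5125 and 6195 in all 10 libraries and is lowest in aged wild-type replicates 3 and 6 (5125 and 5171). It leaves out the genes called in both tests against aged wild type, so smaller differences follow in part from that choice.

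The next steps of the cycle showed smaller differences. Ogdh and Dlst encode the E1 and E2 subunits of the 2-oxoglutarate dehydrogenase complex, which shares its E3 subunit Dld with pyruvate dehydrogenase. Ogdh averaged 548 ± 29.1 (SD, n = 4), 532 ± 26.5 (n = 3) and 556 ± 10.1 (n = 3), and the 95% interval of its log2 difference between aged and young wild type was -0.23 to 0.14. Dlst averaged 364 ± 37.2, 310.2 ± 13.5 and 359 ± 36.1, and its aged wild-type libraries lay below both other groups without passing the test. The succinyl-CoA ligase subunits Sucla2, Suclg1 and Suclg2, which make ATP or GTP from succinyl-CoA, had overlapping groups. Sucla2 averaged 113 ± 5.59, 102 ± 16.6 and 109 ± 3.24, Suclg1 124 ± 14.4, 138 ± 4.05 and 130.2 ± 13.5, and Suclg2 161 ± 10.5, 154 ± 10.8 and 155 ± 21.8. For Suclg2, 15.96% of its 50-base stretches also occur in other genes, and for Pdhb 11.36%, so their reads may be split. The gene that shared the most was Gm15163 for Suclg2 and Gm6123 for Pdhb.

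Succinate dehydrogenase, which is also complex II of the respiratory chain, is built from the flavoprotein Sdha, the iron-sulphur protein Sdhb and the membrane anchors Sdhc and Sdhd. One of the 4, Sdhd, passed the test. Sdhd (ENSMUSG00000000171.5, GRCm38 chr9:50596357-50603812, minus strand) had 138, 103, 109 and 144 normalized counts in young wild type, 75.5, 97.1 and 80.9 in aged wild type and 119, 113 and 111 in the libraries labelled Trem1-/-. The aged wild-type libraries were the 3 lowest of the 10. Sdhd fell in aged against young wild type (log2 -0.54 ± 0.15, limma adjusted p = 0.0178), and this call was lost when aged wild-type replicate 3 (adjusted p = 0.0697) or 6 (adjusted p = 0.0598) was left out. Between the libraries labelled Trem1-/- and aged wild type it differed by 0.44 ± 0.16 (adjusted p = 0.0784), which passed without aged wild-type replicate 4 (0.54, adjusted p = 0.0393). The other anchor, Sdhc, averaged 150.0 ± 6.65, 119.6 ± 18.2 and 137 ± 19.2, with a log2 difference of -0.33 ± 0.14 between aged and young wild type (limma adjusted p = 0.0807), called without replicate 4 (-0.44, adjusted p = 0.0303) and after TMM rescaling (-0.40, adjusted p = 0.0436). The catalytic subunits were closer to level, at 575 ± 16.6, 528 ± 35.1 and 555 ± 26.3 for Sdha and 158 ± 21.7, 155 ± 15.1 and 164 ± 17.7 for Sdhb. The 95% interval for Sdha between aged and young wild type was -0.32 to 0.064.

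Fumarase, encoded by Fh1, averaged 105 ± 16.3, 85.1 ± 17.8 and 94.3 ± 16.2 normalized counts, with overlapping groups. The malate dehydrogenases close the cycle in mitochondria (Mdh2) and serve the malate-aspartate shuttle in the cytosol (Mdh1). Mdh1 was the 1 gene of the set whose aged wild-type libraries lay above all young ones. It averaged 331 ± 29.9 (SD, n = 4), 421 ± 40.1 (n = 3) and 376 ± 67.9 (n = 3), and its log2 difference of 0.35 ± 0.13 had a limma adjusted p of 0.0614. On the recovered reads edgeR (0.38, adjusted p = 0.049) and DESeq2 (0.39, adjusted p = 0.0376) called it higher, and so did limma without aged wild-type replicate 4 (0.43, adjusted p = 0.036). Mdh2 averaged 446 ± 49.1, 393 ± 31.8 and 435 ± 16.4, with overlapping groups. Counting all 35 genes, the libraries of aged and young wild type did not overlap for 1 gene higher and 10 lower in aged wild type, against 18.4% and 21.9% of all genes tested. Between the libraries labelled Trem1-/- and aged wild type, 7 were higher and 3 lower without overlap (19.4% and 15.5% of all genes). Between the former and young wild type 2 were lower without overlap, Pcx and Idh2 (7.72% of all genes), and 0 higher (8.05%).

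All 35 genes summed to 10895 ± 944 normalized counts in the young wild-type libraries (SD, n = 4), to 8155 ± 1108 in the aged wild-type libraries (n = 3) and to 10812 ± 395 in those labelled Trem1-/- (n = 3). Without Acly, Idh1 and Idh2 the remaining 32 summed to 5710 ± 357, 5255 ± 187 and 5531 ± 256. The genes left out were those called in both tests against aged wild type. Smaller differences in the remainder follow in part from that choice. Per kilobase of exon in young wild type, Acly was followed by Idh1 (475 ± 61.9 normalized counts), Sdha (139 ± 4.03) and Idh2 (138 ± 25.4), the last 2 of which were closer than their spread. At the low end were Pdk4 (5.51 ± 2.64), Pdp1 (4.60 ± 1.19), Pcx (4.55 ± 0.889) and Acod1 (3.38 ± 1.32), whose spreads overlapped.

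Since the macrophage markers were lower in aged wild type as well, the level of 8 genes was also expressed per 1000 normalized counts of the 9 markers, a scale chosen after the values were seen and dominated by Lyz2. On it Idh1 and Idh2 no longer separated young from aged wild type. Idh1 was at 15.4 to 19.1 in young wild type, at 14.1 to 24.4 in aged wild type and, in the libraries labelled Trem1-/-, at 13.3 to 19.5, and Idh2 at 4.21 to 5.54, 4.44 to 4.97 and 2.26 to 3.87. Acly was at 41.9 to 50.3, 56.7 to 74.3 and 47.8 to 57.5, Aco1 at 2.01 to 2.19, 2.98 to 3.05 and 1.83 to 2.05, and Sdhd at 1.38 to 1.88, 2.54 to 3.09 and 1.36 to 1.76. Per marker count these 3 genes were higher in aged than in young wild type without overlap, the opposite order to that of their normalized counts. Cs was at 4.33 to 5.43, 10.1 to 13.8 and 3.86 to 6.1, Ogdh at 6.95 to 7.29, 13.2 to 22.9 and 6.74 to 8.94, and Sdha at 7.3 to 7.78, 14.8 to 21.5 and 6.35 to 9.12. In the libraries labelled Trem1-/-, Idh2, Aco1 and Sdhd lay below aged wild type without overlap on this scale. Their mean normalized counts had the opposite order. Cs, Ogdh and Sdha also lay below aged wild type without overlap, and Idh1 and Acly overlapped. No test was run on this scale.

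The authors' deposited table for aged against young wild type carried an adjusted p for all 35 genes. It called 1 of them higher, Acod1, and 5 lower, Idh1, Idh2, Acly, Aco1 and Sdhd, beside 21.9% of the 17359 genes with an adjusted p. Its log2 fold change for Idh2 was -1.26 ± 0.21 (SE, adjusted p = 1.59e-07) and for Idh1 -1.09 ± 0.24 (adjusted p = 5.53e-05).

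Genes that feed or drain the cycle without being in the set were listed separately (36 genes, of which 28 were tested). In aged against young wild type 6 of the 28 were called lower and 0 higher by limma, and edgeR and DESeq2 each called 4 lower and 0 higher. At an unadjusted p under 0.05, 0 of the 28 were higher, beside 2245 of the 11506 genes tested. The 6 make up 21.4% of the 28, near the 19.0% of all genes tested that were called lower. Slc25a13, which encodes the aspartate-glutamate carrier citrin of the malate-aspartate shuttle, had 53.2, 68.4, 70.9 and 80.2 normalized counts in young wild type, 16.6, 21.8 and 24.3 in aged wild type and 49.0, 48.1 and 47.0 in the libraries labelled Trem1-/-. The groups did not overlap, with aged wild type lowest and the libraries labelled Trem1-/- between. Its log2 difference was -1.66 ± 0.19 in aged against young wild type (limma adjusted p = 0.00022) and 1.18 ± 0.20 in the libraries labelled Trem1-/- against aged wild type (adjusted p = 0.00393). The lactate dehydrogenase gene Ldhb (log2 -1.18 ± 0.33, adjusted p = 0.0184) and the dicarboxylate carrier Slc25a10 (log2 -0.74 ± 0.26, adjusted p = 0.0474) were the next largest of the 6 that fell in aged wild type. The others were Slc16a3, which encodes a lactate exporter, Ldha and the glutamate dehydrogenase Glud1. Neither edgeR nor DESeq2 called Slc25a10 or Slc16a3. In the libraries labelled Trem1-/- against aged wild type, Slc25a13 was the 1 gene called higher, and Slc25a12, the paralogue of Slc25a13, was the 1 called lower (log2 -0.52 ± 0.16, adjusted p = 0.0464). Each is 3.57% of the 28, against 11.5% and 6.82% of all genes tested. Both of these carriers were called in the same directions by edgeR and DESeq2. Against young wild type 0 of the 28 were called by limma, edgeR or DESeq2, beside 0.921% of all genes by limma. At an unadjusted p under 0.05, 2 of the 28 were higher and 1 lower, beside 892 higher and 762 lower of the 11506 genes tested.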

How the data were processed

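Total RNA of primary peritoneal macrophages was reverse-transcribed to full-length cDNA and sequenced, per the labels' protocols. The submitters' processing notes name the build GRCm38 and the tools DESeq2 1.20.0, featureCounts 1.5.0-p3, STAR and fastp. No parameter, annotation or strand setting is given in the sources used here, so genes with overlapping exons are uncertain. The authors deposited 1 table of normalized counts (unit: signal, counts divided by a size factor per library) with their mean, and a comparison of aged with young wild type with, per the file headers, a test statistic (unit: score), p-values before and after adjustment, and a log2 fold change with its error. In each library column 100% of values were whole multiples of 1 number (tolerance 1e-06), which gave back the reads. Library columns without a sample numbered 0.

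Because the table holds normalized values, limma-trend on log2(normalized count + 1) was the main test (R 4.3.3, limma 3.58.1), a scale that understates changes of low genes. All 10 libraries entered 1 model of 3 groups, over 11506 genes with a mean of at least 10, and p-values were adjusted by Benjamini-Hochberg for each comparison (threshold 0.05); intervals are 95%. The fit was tested on simulated data. The alternatives were pseudocounts of 0.5 and 10, no filter, a minimum of 50, TMM rescaling, the 2 groups alone, edgeR 4.0.16 (quasi-likelihood) and DESeq2 1.42.0 on the recovered reads, and leaving out each library. Coordinates, exon lengths and overlaps came from GENCODE M21. Floors cover counting error only, since without molecular identifiers 2 reads may be copies of 1 molecule.

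The 35 genes, the lists and the tests were chosen with earlier results of these data known. Values in every library are given for genes called with a log2 difference of at least 0.5 and for the gatekeepers Pdk1, Pdk3, Pdk4, Pdp1, Mpc1, Mpc2, Pcx, Acod1, Cs, Slc25a1 and Acly; of the 36 other pathway genes, the 3 largest called differences are given with values. The labels do not say that libraries came from separate mice, and the spread behind the p-values may therefore be technical.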

Additional observations from a re-analysis of the deposited data

How the results depend on the processing

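Of 45 single-gene differences recomputed under 18 alternatives (8 other settings and 10 that leave out 1 library each), 8 were called, and none of these 8 changed sign under any of the 18. In aged against young wild type, Idh1, Idh2, Acly and Aco1 passed in all 18 and Sdhd in 16. In the libraries labelled Trem1-/- against aged wild type, Acly passed in 18, Idh1 in 17 and Idh2 in 8. For the first comparison, 1 of the 35 genes was higher when only the 2 groups were fitted (Mdh1) and 2 with edgeR and 2 with DESeq2 (Acod1 and Mdh1), against 0; TMM rescaling called 9 lower, adding Dlat, Idh3b, Pdha1 and Sdhc, and a minimum mean of 50 called 6 lower, adding Idh3b. For the second, edgeR and DESeq2 each called 1 lower (Acod1), against 0, and Aco1 passed as higher in 5 of the 18. With 1 library left out, the count of higher genes ran from 0 to 2 and of lower genes from 4 to 8 in the first comparison, and from 1 to 7 and 0 to 1 in the second. The highest counts came without aged wild-type replicate 4, and the 1 in the second came without replicate 6. The cause was not tested, and the share of all genes called under each alternative is not given here.

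Several differences that never passed the test changed sign: 3 under other settings and 9 with a library left out. In aged against young wild type, Pdk4 (log2 0.0032) was -0.020 with a pseudocount of 0.5 and -0.061 after TMM rescaling, and Cs was -0.067 after TMM rescaling. In the second comparison Pdk1 was 0.0059 (TMM), 0.015 (edgeR) and 0.019 (DESeq2). With 1 library left out, the first comparison gave -0.12 to 0.1 for Mpc1, -0.12 to 0.055 for Pdk3, -0.9997 to 0.90 for Pdk4, -0.17 to 0.50 for Pdp1 and -0.044 to 0.084 for Cs. The second gave -0.37 to 0.36 for Pdk1, -0.71 to 1.26 for Pdk4, -0.063 to 0.65 for Pdp1 and -0.032 to 0.26 for Slc25a1. No paired analysis was possible because the groups share fewer than 2 replicate names. With the fewest reads for a gene of the set in a library at 5, Pdk4, Pdp1, Pcx and Acod1 are the least precise.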
